A study of Rattus norvegicus with 40 samples.

Results

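Eci1, Eci2, Ech1, Decr1 and Decr2 encode the auxiliary enzymes that let beta-oxidation pass the double bonds of unsaturated fatty acids. These 5 genes were chosen by name, through their probe sets in the platform annotation of the array, and with earlier results of these data known. Of the 13438 genes that the array measured with a probe set of their own, 4 were among them: Eci1, Eci2, Ech1 and Decr1. In all, 10 probe sets carried a name of the set, 6 of them for 1 gene alone and 4 shared with another gene, and Decr2 was named only on 3 shared probe sets.

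The samples were livers of adult male Sprague Dawley rats (SD:CD) in 4 groups of 10. The groups received vehicle, or a low (0.1 mg/kg), middle (1 mg/kg) or high (10 mg/kg) dose of GW7647, a synthetic agonist of PPAR-alpha, by mouth once a day for 4 days, and tissue was collected 24 h after dosing ended. PPAR-alpha is the nuclear receptor that senses fatty acids in liver and switches on genes of their breakdown. The RNA of each liver was read on 1 Affymetrix array, which made 40 arrays, and the values are log2 expression per probe set as the authors deposited them. The labels describe individual rats, and all groups shared the strain, the sex and the gavage schedule. The mean of 7 measured hepatocyte markers per array ranged from 11.78 to 12.08 at 10 mg/kg and from 12.07 to 12.20 with vehicle (log2). Of these markers 3 fell at 10 mg/kg, where 7.69% of all genes fell. Among them was Ass1 of the urea cycle, by 1.44 on the log2 scale, while Alb, which encodes albumin, had -0.02.

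Beta-oxidation shortens a fatty acid only when the double bond next to the thioester lies in the trans position that enoyl-CoA hydratase accepts. Natural double bonds lie elsewhere or are cis, so an isomerase (Eci1 in mitochondria, Eci2 in peroxisomes and mitochondria) moves them. Where a pair of double bonds forms a diene, a reductase that spends NADPH (Decr1 in mitochondria, Decr2 in peroxisomes) removes one of them, and Ech1 shifts both bonds of a diene so that the reductase can act. The isomerases Eci1, Eci2 and Ech1 belong to the hydratase/isomerase superfamily, while Decr1 and Decr2 belong to the short-chain dehydrogenases.

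Promoter windows are shown for the mitochondrial isomerase Eci1 and for Eci2, since both encode enoyl-CoA isomerases and they differed in their change at the lowest dose. The sequences are from RefSeq (GRCr8 build), run 5′ to 3′ on the strand of the gene, and cover 250 bases before the annotated start and 50 from it on. The windows lie on the + strand at chr10:13961000-13961299 for Eci1 and at chr17:30075516-30075815 for Eci2. Capitals mark TGACCT, which is AGGTCA on the other strand. AGGTCA is the half-site letter pattern that many nuclear receptors recognise.
Eci1: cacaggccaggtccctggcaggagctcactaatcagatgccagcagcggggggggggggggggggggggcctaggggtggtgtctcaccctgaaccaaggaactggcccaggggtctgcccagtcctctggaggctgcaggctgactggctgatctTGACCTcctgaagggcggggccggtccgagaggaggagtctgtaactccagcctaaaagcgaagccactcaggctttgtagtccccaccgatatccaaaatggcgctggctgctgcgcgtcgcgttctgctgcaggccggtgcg
Eci2: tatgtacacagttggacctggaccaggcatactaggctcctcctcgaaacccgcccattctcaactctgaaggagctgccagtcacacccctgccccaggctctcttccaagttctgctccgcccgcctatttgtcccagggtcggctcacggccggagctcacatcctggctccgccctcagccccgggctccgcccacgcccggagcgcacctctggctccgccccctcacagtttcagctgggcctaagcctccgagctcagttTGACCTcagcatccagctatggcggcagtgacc

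In Eci1 the match begins 94 bases before the start, and in Eci2 it begins 17 bases after it. AGGTCA was searched on both strands and was held by 5415 of the 33469 windows of this length in the table, or 16.179%, so each match is a common one. The half-site repeated with 1 base between the copies was held by 0.054% of the windows, and the same repeat of AGGNCA, with N for any base, by 0.415%. Neither was found in the windows of Eci1, Eci2 or Decr2. A pattern of letters is a description of the window and says nothing of what binds there. Ech1 and Decr1 are named only, without a window.

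The scale of the deposited values moved with dose. The array median of all probe sets averaged 2.47, 2.47, 2.60 and 2.71 in the vehicle, 0.1, 1 and 10 mg/kg groups. Probe sets for bacterial RNA added at hybridisation averaged 9.34, 9.38, 9.51 and 9.58 in the same dose order, and those for poly-A RNA added before labelling averaged 5.57, 5.84, 6.22 and 6.56. Beta-actin, whose 3′ end over its 5′ end reads RNA and labelling quality, had log2 differences of 2.78, 2.85, 3.11 and 3.22. The median log2 change of all genes against vehicle was -0.03, 0.16 and 0.26 at the 3 doses. The words rose and fell are therefore kept for genes where limma's adjusted p was under 0.05 in the same direction on both scales, as deposited and with all 40 arrays quantile-normalized. Offsets of a whole group of arrays and dose cannot be told apart, and the standard errors given over arrays do not cover them.

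Eci1, the mitochondrial enoyl-CoA isomerase, rose at each dose against vehicle on the brightest of its 3 probe sets, 1367659_PM_s_at. Its log2 level had lowest, median and highest values of 9.74, 9.98 and 10.37 with vehicle, 10.26, 10.87 and 11.16 at the low dose, 12.20, 12.40 and 12.63 at the middle dose, and 12.59, 12.67 and 12.74 at the high dose. At 0.1 mg/kg, 8 of the 10 arrays lay above every vehicle array, and at 1 and 10 mg/kg no array overlapped with vehicle or with 0.1 mg/kg. The rises were 1.73-fold at the low, 5.34-fold at the middle and 6.34-fold at the high dose (limma adjusted p = 1.04e-06, 4.48e-23 and 6.54e-25). At the low dose the other probe sets, both dim, had log2 changes of 0.06 and 0.04, and the mean of all 3 had 0.30 and did not pass (limma adjusted p = 0.205). The spread was narrowest at the highest dose, where the mean was 12.66 ± 0.05, against 10.00 ± 0.22 with vehicle (SD, n = 10 each).

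Ech1, the dienoyl-CoA isomerase, had the largest fold changes of the 4 measured genes at 1 and 10 mg/kg. Its lowest, median and highest log2 levels were 8.47, 9.12 and 9.42 with vehicle, 9.52, 9.75 and 10.19 at the low dose, 11.52, 11.69 and 11.89 at the middle dose, and 11.96, 12.07 and 12.18 at the high dose. Every dose group lay wholly above the one before it, and the 0.1 mg/kg group lay wholly above vehicle. The rises against vehicle were 1.64-fold at the low, 6.05-fold at the middle and 8.01-fold at the high dose (limma adjusted p = 5.79e-07, 3.33e-26 and 6.9e-29). Only 2 of the 13438 genes, or 0.0149%, were higher on both scales without overlap at 0.1 mg/kg, and Ech1 was 1 of them.

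Decr1, the mitochondrial dienoyl-CoA reductase, rose at each dose by a smaller fold. Its lowest, median and highest log2 levels were 10.33, 10.51 and 10.93 with vehicle, 10.72, 11.05 and 11.22 at the low dose, 11.48, 11.72 and 11.90 at the middle dose, and 11.88, 11.98 and 12.07 at the high dose. Of the 0.1 mg/kg arrays, 7 lay above every vehicle array, and at 1 and 10 mg/kg the groups did not overlap with vehicle. The rises were 1.34-fold at the low, 2.22-fold at the middle and 2.63-fold at the high dose (limma adjusted p = 0.000554, 8.97e-17 and 4.78e-20). The rise at 0.1 mg/kg no longer passed when only the vehicle and 0.1 mg/kg arrays were fitted (adjusted p = 0.0665) or when arrays were scaled to the hybridisation controls (log2 change 0.38, adjusted p = 0.996).

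Eci2, the isomerase found in peroxisomes and mitochondria, did not pass at 0.1 mg/kg and rose at the higher doses. Its lowest, median and highest log2 levels were 9.21, 9.31 and 9.50 with vehicle, 9.15, 9.29 and 9.67 at the low dose, 9.93, 10.12 and 10.54 at the middle dose, and 10.37, 10.89 and 11.42 at the high dose. The 0.1 mg/kg and vehicle arrays overlapped, with 2 of 10 above every vehicle array, and their means of 9.34 ± 0.19 and 9.34 ± 0.10 (SD, n = 10 each) lay within the spread of either group. The log2 change at 0.1 mg/kg was 0.00 with a 95% interval of -0.18 to 0.18 (-0.15 to 0.17 after quantile normalization). At 1 and 10 mg/kg no array overlapped with vehicle, and Eci2 rose 1.80-fold and 2.94-fold (limma adjusted p = 1.28e-09 and 7.06e-18).

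**Figure D1:**
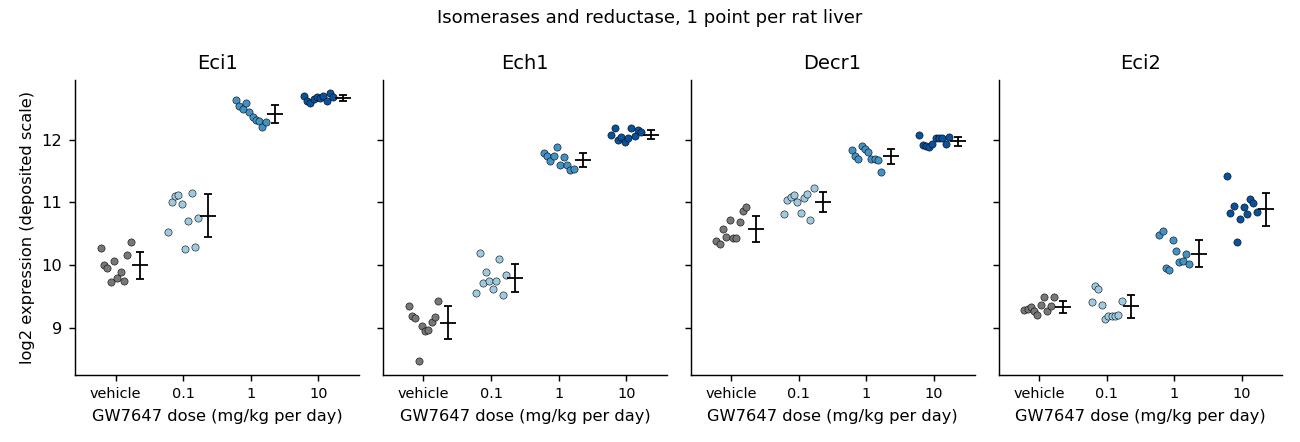
Log2 expression on the deposited scale of the probe set used for each gene, by GW7647 dose in mg/kg per day, with 1 point per array and bars for the mean and SD of 10 arrays. Ech1 at 0.1 mg/kg lies wholly above vehicle, Eci1 and Decr1 partly overlap with it, and Eci2 at 0.1 mg/kg lies on the vehicle arrays and separates from them at 1 mg/kg.

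Counted together, 3 of the 4 measured genes rose at 0.1 mg/kg, against 11 of 13438 genes, or 0.0819%, that rose at that dose on both scales. The count was 2 of 4 with averaged probe sets, with hybridisation control scaling or with only the compared groups fitted. At the middle dose all 4 rose, beside 11.1% of all genes on both scales, and at the high dose all 4 rose, beside 20.4%. By size of rise on the deposited scale, Eci1 ranked 10, Ech1 14, Decr1 45 and Eci2 4927 of 13438 at 0.1 mg/kg. Ranks at 1 mg/kg were 13 for Ech1, 16 for Eci1, 120 for Decr1 and 273 for Eci2. The order at 10 mg/kg was Ech1 at 34, Eci1 at 46, Eci2 at 153 and Decr1 at 189, so Eci2 then stood ahead of Decr1. Groups that were higher on both scales without overlap made up 1.3% of genes at the middle and 3.63% at the high dose, and all 4 genes were among them both times.

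Quantile normalization lowered the changes at the upper doses without moving a direction. At 10 mg/kg against vehicle the folds became 5.49 for Eci1, 6.63 for Ech1, 2.23 for Decr1 and 2.40 for Eci2, with limma adjusted p of 3.07e-23, 2.3e-27, 1.29e-16 and 1.29e-16. At 0.1 mg/kg the log2 changes were 0.79, 0.70, 0.44 and 0.01 in the order Eci1, Ech1, Decr1 and Eci2, close to the deposited 0.79, 0.71, 0.42 and 0.00.

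**Figure D2:**
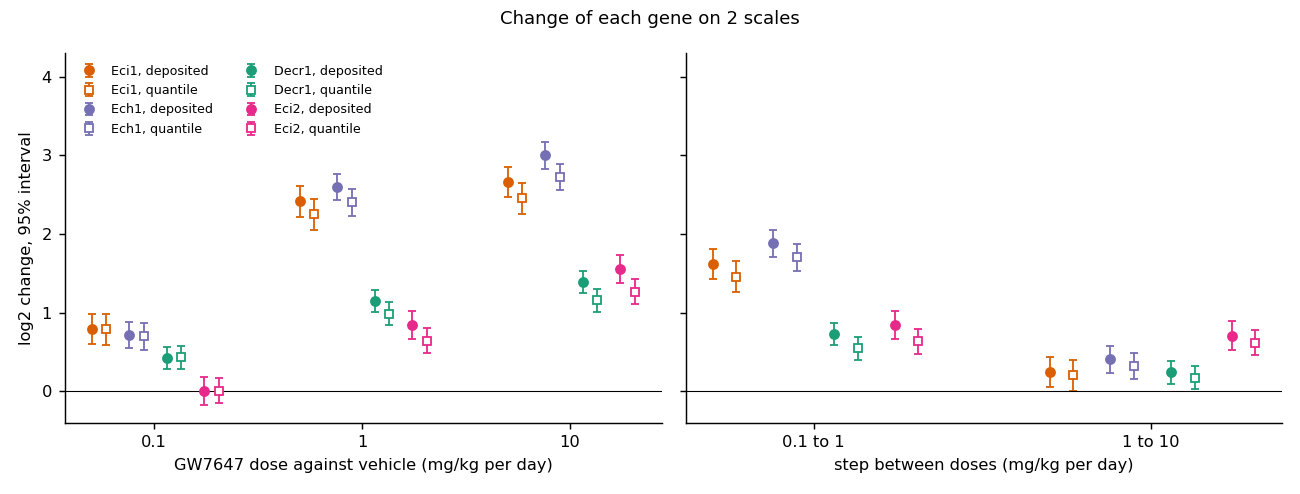
Log2 change with its 95% interval for Eci1, Ech1, Decr1 and Eci2 as deposited (filled circles) and after quantile normalization (open squares), for each dose against vehicle on the left and for the steps between doses on the right. From 0.1 to 1 mg/kg Ech1 and Eci1 change most, and from 1 to 10 mg/kg Eci2 changes most, by 0.71 as deposited and 0.62 when quantile-normalized.

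The steps between neighbouring doses divided the genes in another way. Between 0.1 and 1 mg/kg all 4 genes rose on both scales, where 10.5% of all genes did. No group of 1 mg/kg values overlapped with its 0.1 mg/kg group. Of all 13438 genes, 1.06% were higher on both scales without overlap in this step. The log2 changes of that step were 1.62 for Eci1, 1.88 for Ech1, 0.73 for Decr1 and 0.84 for Eci2 (limma adjusted p = 7.39e-17, 5.43e-21, 1.08e-10 and 1.5e-09), beside a median of 0.20 over all genes. Between 1 and 10 mg/kg Ech1 and Eci2 rose on both scales, where 8.55% of genes did. Ech1 changed by 0.41 (limma adjusted p = 0.000292, and 0.0045 after quantile normalization), and all 10 arrays at 10 mg/kg lay above every 1 mg/kg array. Of all 13438 genes, 0.915% were higher on both scales without overlap between 1 and 10 mg/kg. The change of Eci2 in that step was 0.71 (adjusted p = 1.46e-07, and 2.05e-07 after quantile normalization), with 9 of 10 arrays above every 1 mg/kg array. Eci1, on its brightest probe set, and Decr1 had log2 changes of 0.25 and 0.24 in the same step, with 7 and 8 arrays above (3 and 4 after quantile normalization). They passed on the deposited scale only, where 24.2% of genes were higher (adjusted p after quantile normalization 0.14 and 0.0928). The further Eci1 probe set 1392684_PM_at changed by 0.51 in this step and rose on both scales (limma adjusted p over all probe sets = 0.00441, and 0.0136 after quantile normalization). The dim 1370961_PM_at of Eci1 changed by -0.12 and did not pass (limma adjusted p = 0.321).

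The contrast of both steps tested whether the response had the same size in each. For Eci1 the second step was smaller than the first by a log2 difference of -1.37 (limma adjusted p = 2.42e-07), and for Ech1 by -1.48 (adjusted p = 1.61e-09), both also lower after quantile normalization. Of all genes 2.98% were lower in this contrast on both scales. Decr1 had -0.49 and passed on the deposited scale only, where 11% of genes were lower (adjusted p = 0.00539, and 0.0652 after quantile normalization). Eci2 had -0.13 with a 95% interval of -0.45 to 0.18 (adjusted p = 0.579), so its steps could not be told apart in size. The probe sets used lay near the top of the array at 10 mg/kg. On average 0.08% of probe sets were brighter than that of Eci1, 0.23% than Ech1, 0.26% than Decr1 and 1.17% than Eci2. What such a level does to the size of the last step was not tested.

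The 1 mg/kg group held arrays that differed in their preparation controls. Its arrays 1 to 4 had poly-A control levels from 5.25 to 5.70, and its arrays 5 to 10 from 6.34 to 7.39. Eci1 lay between 12.49 and 12.63 on arrays 1 to 4 and between 12.20 and 12.44 on arrays 5 to 10, without overlap, while Ech1, Decr1 and Eci2 overlapped between these arrays. Kept to arrays 1 to 4 of that group, the log2 changes at 1 mg/kg against vehicle were 2.56 for Eci1, 2.65 for Ech1, 1.21 for Decr1 and 0.89 for Eci2, all past the threshold. The step from 1 to 10 mg/kg then was 0.10 for Eci1 (limma adjusted p = 0.648), 0.35 for Ech1 (0.0331), 0.18 for Decr1 (0.186) and 0.67 for Eci2 (0.000394). With quantile normalization as well, the step of Ech1 was 0.25 with adjusted p = 0.181, and that of Eci2 was 0.58 with adjusted p = 0.000653.

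Differences in response between the genes were tested within arrays, where a shift of the array's whole scale cancels. The measure was the log2 difference of 2 genes on the same array, in each dose group against vehicle, with a two-sided permutation test of 100000 resamples over 10 against 10 arrays. There were 6 pairs and 3 doses, or 18 tests, of which 16 passed after Benjamini-Hochberg adjustment over the 18, with the same number on either scale. The smallest p these permutations can give is 1e-05, or 1.64e-05 after adjustment.

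At 0.1 mg/kg each of the other genes had a larger change than Eci2. Eci1 minus Eci2 averaged 1.45 ± 0.32 at 0.1 mg/kg and 0.66 ± 0.21 with vehicle (SD, n = 10 each), a change of 0.79 (SE 0.12, permutation adjusted p = 1.64e-05) with 10 of 10 arrays above every vehicle array. With the mean of Eci1's 3 probe sets in place of the brightest, this change was 0.29 (permutation adjusted p = 0.00353), with 5 of 10 arrays above. Ech1 minus Eci2 changed by 0.71 (SE 0.11, permutation adjusted p = 1.64e-05), also in 10 of 10 arrays above every vehicle array. Decr1 minus Eci2 changed by 0.42 (SE 0.095, permutation adjusted p = 0.00099), with 7 of 10 arrays above.

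At 10 mg/kg the excess over Eci2 was 1.11 for Eci1 and 1.45 for Ech1, smaller than the 1.57 and 1.75 at 1 mg/kg, and all 4 values had a permutation adjusted p of 1.64e-05. With the mean of its probe sets, Eci1 exceeded Eci2 by 0.30 at the high dose (permutation adjusted p = 0.0159), where 7 arrays lay above and 1 below every vehicle array, and by 0.80 at the middle dose (permutation adjusted p = 2e-05). Decr1 minus Eci2 changed by 0.31 at 1 mg/kg (SE 0.096, permutation adjusted p = 0.0063) and by -0.16 at 10 mg/kg (SE 0.098, permutation adjusted p = 0.124), so at the highest dose the reductase and Eci2 could not be told apart in their change. The step from 1 to 10 mg/kg was compared for the 6 pairs after its values had been seen. In that step Eci2 outran the brightest probe set of Eci1, with -0.46 for Eci1 minus Eci2 (SE 0.11, permutation adjusted p = 0.00117). The other probe sets of Eci1 were not compared with Eci2 in this step. Decr1 minus Eci2 changed by -0.47 (permutation adjusted p = 0.00117) and Ech1 minus Eci2 by -0.30 (permutation adjusted p = 0.00978). These tests used all arrays of the 1 mg/kg group.

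**Figure D3:**
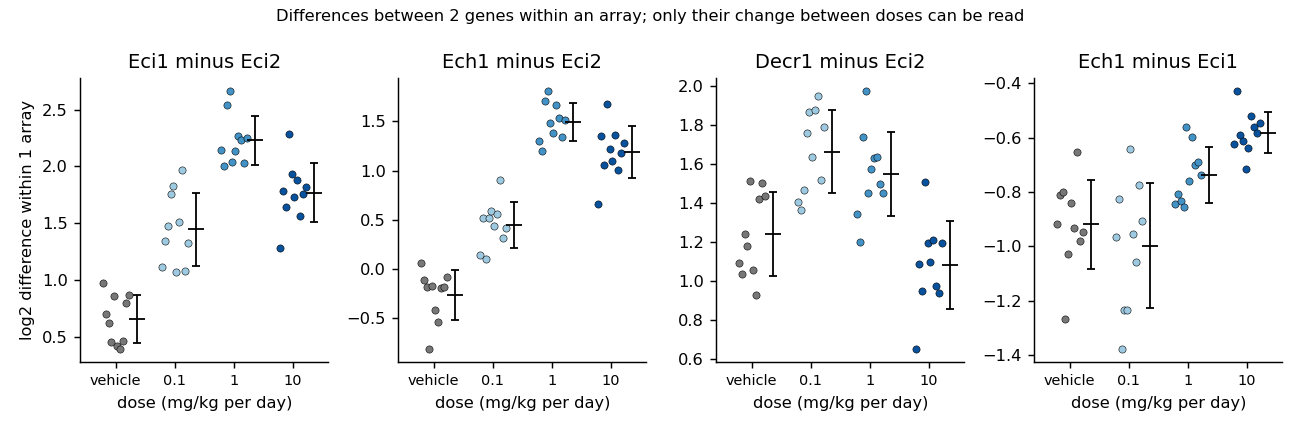
Log2 difference between 2 genes on the same array, on the deposited scale, for Eci1, Ech1 and Decr1 minus Eci2 and for Ech1 minus Eci1, by dose in mg/kg per day, with 1 point per array and bars for mean and SD of 10 arrays. Eci1 minus Eci2 and Ech1 minus Eci2 are higher at every dose than with vehicle and highest at 1 mg/kg, and only the change between doses can be read, not the level.

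The isomerases Ech1 and Eci1 could not be told apart in their change at the lowest dose and moved apart at the upper ones. Ech1 minus Eci1 changed by -0.08 at the low dose (SE 0.090, permutation adjusted p = 0.391), by 0.18 at the middle dose (SE 0.061, permutation adjusted p = 0.00718) and by 0.34 at the high dose (SE 0.057, permutation adjusted p = 1.64e-05). On the brightest probe sets, both rose more than the reductase Decr1 at every dose. Eci1 minus Decr1 changed by 0.37, 1.26 and 1.27 at the low, middle and high dose, and Ech1 minus Decr1 by 0.29, 1.44 and 1.61. These values depend on the probe set taken for Eci1. With the mean of its 3 probe sets, Ech1 minus Eci1 changed by 0.42, 0.95 and 1.14 at the low, middle and high dose (permutation adjusted p = 2e-05 each). Eci1 minus Decr1 then changed by -0.13, 0.49 and 0.47 (permutation adjusted p = 0.105, 0.000115 and 0.000115), and so passed at the upper doses only. The probe sets averaged with the brightest were both dim, at 2.74 and 2.23 (log2) with vehicle, and changed by 0.06 and 0.04 at the low dose. A mean that includes them is bound to be smaller there. It cannot decide how the change of Eci1 compares with that of Decr1 or Ech1 at that dose.

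The remaining probe sets of Eci1 and Eci2 gave partly other values. Eci1 has 2 further probe sets of its own. On 1392684_PM_at the log2 level averaged 2.74 ± 0.15 with vehicle, 2.79 ± 0.24 at the low, 4.88 ± 0.31 at the middle and 5.39 ± 0.49 at the high dose (SD, n = 10 each). In limma's fit of all probe sets it had a log2 change of 0.06 at 0.1 mg/kg (adjusted p = 0.993) and rose at 1 and 10 mg/kg (adjusted p = 1.78e-15 and 4.41e-19). Its vehicle level lay near the array median of all probe sets, so no fold is given. The dim 1370961_PM_at averaged 2.23, 2.27, 2.61 and 2.49 in dose order from vehicle to 10 mg/kg. It passed on both scales at 1 mg/kg and, with a quantile log2 change of 0.01, not at 10 mg/kg.

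Eci3 encodes a close relative of Eci2, and 1372765_PM_a_at is annotated to both. That shared probe set averaged 10.09 ± 0.12 with vehicle, 10.07 ± 0.13 at the low, 10.51 ± 0.23 at the middle and 10.72 ± 0.22 at the high dose (SD, n = 10 each). Its log2 changes were -0.02, 0.42 and 0.62 at the 3 doses, of which those at 1 and 10 mg/kg passed on both scales. The probe set of Eci3 alone, looked up after these values were seen, had 0.36 at the high dose as deposited, but 0.07 once quantile-normalized, where it did not pass (adjusted p = 0.38).

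Decr2, the peroxisomal dienoyl-CoA reductase, has no value of its own here. Its 3 probe sets are annotated jointly to Rab11fip3, a partner of a Rab GTPase in membrane recycling, to Decr2 and to Nme4, a mitochondrial nucleoside diphosphate kinase, so their signal cannot be assigned to 1 of the 3 genes. On the brightest, 1370818_PM_at, the lowest, median and highest log2 levels were 9.23, 9.34 and 9.53 with vehicle, 9.46, 9.67 and 9.79 at the low dose, 10.47, 10.70 and 10.87 at the middle dose, and 10.73, 11.02 and 11.14 at the high dose. The 1 and 10 mg/kg arrays did not overlap with vehicle, and 6 of the 0.1 mg/kg arrays lay above every vehicle array. In limma's fit of all probe sets it rose 2.53-fold at the middle and 3.10-fold at the high dose (adjusted p = 9.54e-21 and 3.64e-24), where 9.13% and 18.2% of probe sets rose on both scales. Its log2 change of 0.28 at 0.1 mg/kg had adjusted p = 0.0941, and 0.041 after quantile normalization, where 0.0387% of probe sets rose on both scales.

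Both dimmer joint probe sets gave smaller changes. 1372959_PM_at averaged 3.29 ± 0.18 with vehicle, 3.25 ± 0.15 at the low, 3.88 ± 0.09 at the middle and 4.13 ± 0.28 at the high dose (SD, n = 10 each), and rose on both scales at 1 and 10 mg/kg. The values of 1389129_PM_at were 4.5 ± 0.28, 4.38 ± 0.15, 5.03 ± 0.22 and 5.11 ± 0.20 in the same dose order, and it rose on both scales at 10 mg/kg only, with log2 changes of 0.60 as deposited and 0.34 once quantile-normalized.

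**Figure D4:**
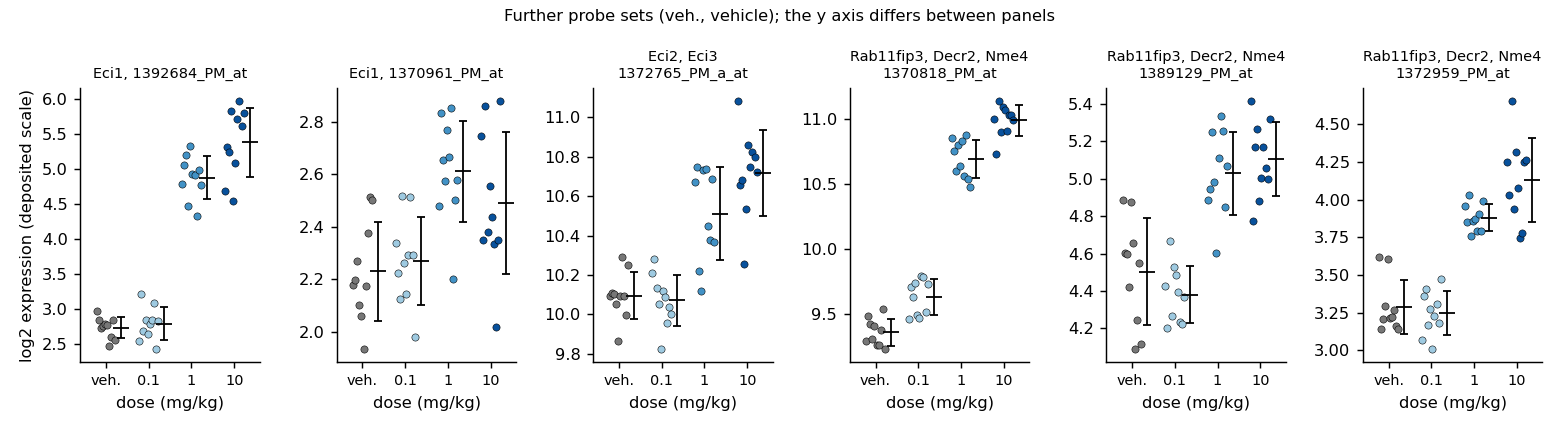
Log2 expression on the deposited scale of the probe sets not used for a gene value, by dose in mg/kg per day, with 1 point per array and bars for mean and SD of 10 arrays. The y axis differs between panels, and titles give all genes to which a probe set is annotated. Eci1 1392684_PM_at and the joint probe sets 1370818_PM_at and 1372959_PM_at separate from vehicle at 1 and 10 mg/kg, the last of them on the deposited scale only.

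Relatives of the isomerases changed unevenly. Of the 10 measured members of the hydratase/isomerase superfamily outside the set, 1 rose at the low, 4 at the middle and 5 at the high dose, and 0 fell at any dose. Over all genes 0.0819%, 11.1% and 20.4% rose on both scales at these doses, shares that also stand beside the counts of the lists below. At 10 mg/kg Ehhadh, the peroxisomal bifunctional enzyme that carries an isomerase activity of its own, rose 8.77-fold, and Hadha, the alpha subunit of the mitochondrial trifunctional protein, rose 4.81-fold. Hibch, of valine breakdown, rose 3.61-fold, and Echdc3 rose 1.60-fold. Echs1, the enoyl-CoA hydratase that takes the product of the isomerases, had log2 changes of 0.16 (deposited) and -0.12 (quantile-normalized) at 10 mg/kg, and was not called on both scales. The median log2 change of this list at 10 mg/kg was 0.61 (0.31 after quantile normalization), against 2.11 (1.86) for Eci1, Eci2, Ech1 and Decr1 and 0.26 (-0.02) over all genes.

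Other enoyl-CoA reductases and short-chain dehydrogenases, taken as 1 list, also rose in part. Among the 6 measured, 0 rose at the low, 4 at the middle and 4 at the high dose, and 0 fell. The rises at 10 mg/kg were 2.15-fold for Hsd17b4, the second peroxisomal bifunctional enzyme, 1.75-fold for Hsd17b8, of mitochondrial fatty acid synthesis, 1.52-fold for Hsd17b10, of isoleucine breakdown, and 1.29-fold for Pecr, a peroxisomal enoyl-CoA reductase. Their list median was 0.62 (0.34 after quantile normalization).

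The beta-oxidation spirals that the auxiliary enzymes feed rose in most of their measured genes at the upper doses. Their lists share genes with the lists of relatives above, so the counts are not independent. Hadha and Echs1 are also in the mitochondrial list, and Ehhadh and Hsd17b4 in the peroxisomal list. Of 17 measured genes for the mitochondrial core and the carnitine shuttle, 2 were raised at the low, 15 at the middle and 15 at the high dose, and 0 fell. Cpt1b, the muscle-type carnitine palmitoyltransferase, rose to 8.54 (log2) at 10 mg/kg, against 2.29 with vehicle, a level below the array median of all probe sets from which no fold is given. Hadhb, the beta subunit of the trifunctional protein, rose 3.89-fold and Slc25a20, the carnitine carrier, rose 3.53-fold. For the 11 measured peroxisomal genes, 1 rose at the low and 6 at the middle dose, and 7 rose and 2 fell at the high dose, where 7.69% of all genes fell on both scales. Crat, the carnitine acetyltransferase, rose 23.3-fold at 10 mg/kg, Acot8, a peroxisomal thioesterase, 4.77-fold and Abcd3, a fatty acid transporter of the peroxisome, 4.19-fold. The 2 that fell, named after their values were seen, were Amacr, the racemase for branched-chain substrates, with -0.73, and Acox2, the oxidase for branched chains, with -0.32. The list medians at 10 mg/kg were 1.16 (0.88 after quantile normalization) for the mitochondrial and 1.10 (0.83) for the peroxisomal genes.

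Genes that make double bonds or NADPH, in any compartment of the cell, were described as well. Of the 6 measured desaturases, which introduce double bonds, 4 rose and 1 fell at 10 mg/kg, where 20.4% of all genes rose and 7.69% fell on both scales. Scd2 rose 8.25-fold, Fads2 4.59-fold, Fads1 2.62-fold and Scd 1.86-fold, while Fads3, named after its value was seen, fell by 0.39 on the log2 scale. NADPH is spent by Decr1 in mitochondria. Of 6 measured genes that make NADPH in any compartment, 3 rose and 1 fell at 10 mg/kg, beside 20.4% and 7.69% of all genes on both scales. Me1, the cytosolic malic enzyme, rose 8.53-fold, Pgd of the pentose phosphate pathway 2.01-fold and Idh1 1.49-fold, while the mitochondrial Me3 had -1.44. Whether the NADPH open to Decr1 changed was not tested. Neither list had a gene that passed at 0.1 mg/kg.

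**Figure D5:**
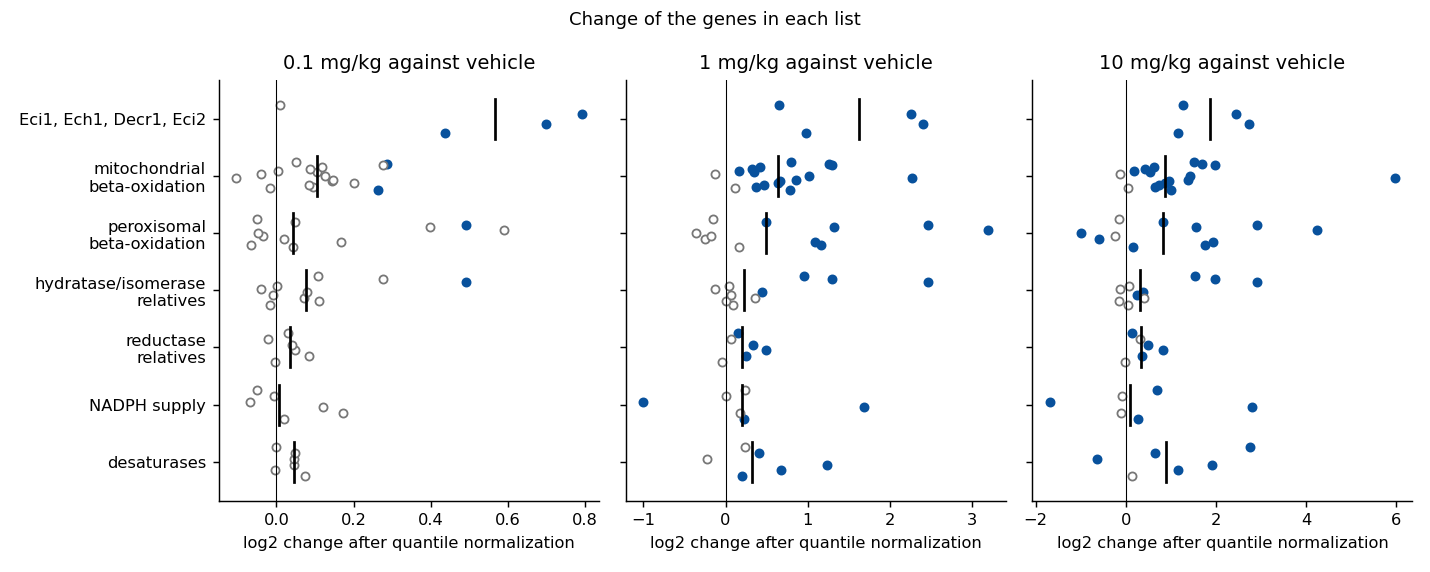
Log2 change after quantile normalization of each measured gene in the pathway lists, by dose against vehicle, with filled points for genes past the threshold in the same direction on both scales and a bar for the list median. The auxiliary enzymes have a higher median at 10 mg/kg (1.86) than the mitochondrial (0.88) and peroxisomal (0.83) beta-oxidation lists.

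The genes whose pattern over the 40 arrays was most like each of the 4 were found by Pearson correlation of quantile-normalized values among the 5810 genes that reached log2 5 in the mean of some group. The arrays share dose groups, so these values describe likeness across doses and carry no test. For Eci1 they were Ech1 (0.988), Aig1 (0.986), a hydrolase of fatty acid esters, and Cyp4a1 (0.985), a fatty acid hydroxylase. For Ech1 they were Acot2 (0.989), a mitochondrial thioesterase, Aig1 (0.988) and Eci1 (0.988). Decr1 was most like Eci1 (0.964), Aig1 (0.961) and Pex11a (0.96), of peroxisome division.

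Eci2 had other nearest genes. They were Nudt7 (0.981), a peroxisomal CoA diphosphatase, Slc25a20 (0.973) and Dhrs4 (0.969), a peroxisomal short-chain dehydrogenase. Their log2 changes at 0.1 and 10 mg/kg were 0.07 and 2.13 for Nudt7, 0.04 and 1.82 for Slc25a20, and 0.13 and 1.42 for Dhrs4. Aig1, near the other 3 genes, had 1.49 and 5.47, and Cyp4a1 had 0.90 and 3.26. After group means were taken out, the gene most like Eci1 was Acot2 (0.728), that most like Ech1 was Crat (0.744), that most like Decr1 was Hadhb (0.66) and that most like Eci2 was Coq3 (0.87), an enzyme of ubiquinone synthesis.

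Markers of another liver cell type moved with dose. Of 9 measured macrophage and Kupffer cell markers, 0 fell at the low dose and 4 at the middle dose, where 3.37% of all genes fell on both scales. At the high dose 8 fell, where 7.69% of all genes did. Their median change at the high dose was -0.69 in log2 units (-1.01 after quantile normalization). The mean of these markers per array ranged from 6.04 to 7.16 at 10 mg/kg and from 6.84 to 7.65 with vehicle, and these ranges overlap. In whole liver, fewer cells of a type and less RNA per cell cannot be told apart. The part of these markers and of the preparation controls in the changes of Eci1, Eci2, Ech1 and Decr1 was not tested.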

How the data were processed

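Liver RNA of 40 rats was read on 1 array each. The deposited values are log2 expression per probe set. The submitters' processing notes name GCRMA and Partek for the steps the authors took, with versions not given in the sources used here. Arrays have no read depth, so their number limits the precision. Of 31139 probe sets, 19069 had 1 symbol, 572 several (which name no gene) and 11498 were unnamed; symbols were updated by Entrez number from RefSeq names (18989 matched). Each gene took its probe set with the highest mean, which gave 13438 genes. Dose contrasts were fitted to all arrays with limma 3.58.1 in R 4.3.3 (36 residual degrees of freedom) and adjusted by Benjamini-Hochberg over all genes, and over 31042 probe sets in a second fit. The limma fit was tried on simulated data with independent noise in each value. Those data held no offset of a whole group, so the trial does not cover the scale shift seen here. The tests of pairs of genes were planned for all 5 genes, but Decr2 shares each probe set, which left 6 pairs and 18 tests. The genes named are the 5, up to 4 of each list with the largest called changes at 10 mg/kg, Ehhadh and Echs1, and the 3 most like each gene, of which the text gives the first within groups. Fads3, Amacr, Acox2, the probe set of Eci3 alone and the hepatocyte markers Alb and Ass1 lie outside this rule and were named after their values were seen. Members and lists were chosen with earlier results of these data known. Scaling, filters, probe set choice, priors, the replicate block and left-out arrays were varied.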

Additional observations from a re-analysis of the deposited data

Results flagged for a closer look

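Ech1 on vehicle replicate 4 was the lowest of the 10 vehicle arrays at 8.47 (log2), and the next array read 8.95. Its distance to the next array was 0.507 of the range of the group, above Dixon's 95% critical value for 10 values. It was 1 of 40 sets of 10 values examined, and chance flags about 1 in 20. Without it, the log2 change of Ech1 at 0.1 mg/kg was 0.65.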

How the results depend on the processing

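The log2 changes of Eci1, Ech1 and Decr1 at every dose, and of Eci2 at 1 and 10 mg/kg, kept their direction under the 10 alternatives and with each of the 40 arrays left out in turn. The change of Eci2 at 0.1 mg/kg turned to -0.038 (adjusted p = 0.996) when arrays were scaled to the hybridisation controls, and it ran from -0.034 to 0.024 with single arrays left out. Of the 4 genes, 4 passed in the step from 1 to 10 mg/kg as deposited. This became 2 with quantile normalization, arrays shifted to 1 median, hybridisation control scaling or arrays 1 to 4 of the 1 mg/kg group, and 1 with the last joined to quantile normalization, a setting added after the data were seen. The log2 change of Eci1 in that step was 0.22 to 0.27 (limma adjusted p 0.0298 to 0.0819) with single arrays left out, and its adjusted p was 0.0543 with only genes at log2 5 or more. The replicate block gave it adjusted p = 0.0535, and 3 genes called in that step, with 8658 genes called overall at 10 mg/kg. Replicate numbers were shared across groups. Same-numbered arrays of different groups had a mean correlation of deviations of 0.0467, with 17 of 60 pairs above 0.1. Arrays of different groups and different numbers had a mean of -0.0047, with 104 of 540 pairs above 0.1. Whether same-numbered arrays share more than a number was not tested.

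For Eci1 at 0.1 mg/kg, averaging its brightest probe set with the dim others gave 0.30 (limma adjusted p = 0.205). It also turned the difference Ech1 minus Eci1 at 0.1 mg/kg to 0.42 and Eci1 minus Decr1 to -0.13. Over all genes, 13, 5592 and 8626 were called against vehicle at 0.1, 1 and 10 mg/kg, 6504 and 4109 in the steps to 1 and to 10 mg/kg, and 2026 between the steps. At 0.1 mg/kg 7 were called with hybridisation scaling and 7 with the compared groups only. At 1 mg/kg there were 3106 with quantile normalization, 1737 with hybridisation scaling, 3175 with the filter, 3620 with arrays 1 to 4, and 1839 with arrays 1 to 4 and quantile normalization. At 10 mg/kg there were 4022 with hybridisation scaling and 3881 with the filter, which tests fewer genes. In the step to 1 mg/kg there were 2940 (quantile), 4069 (median shift), 2111 (hybridisation), 3589 (filter), 4274 (arrays 1 to 4) and 1740 (arrays 1 to 4 and quantile). In the step to 10 mg/kg there were 2462 (quantile), 1151 (hybridisation), 1422 (filter), 1993 (arrays 1 to 4) and 1198 (arrays 1 to 4 and quantile). Between the steps there were 779, 359, 596, 389 and 262 in that order. The cause of these differences was not tested.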
